A study of Homo sapiens with 33 samples.

Results

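The Hedgehog pathway genes *SHH*, *IHH*, *PTCH1*, *SMO*, *GLI1*, *GLI2*, *GLI3*, *HHIP* and *GAS1* were followed by bulk RNA-seq through a 14-day gonadal differentiation of human embryonic stem cells, with and without activation of *FOXL2*. They were chosen by name, and the 9 genes were all found among the 58735 genes of the count table. The cells were H9-FOXL2-DDdCas9VP192, a line of the established human embryonic stem cell line H9 that carries a conditional dCas9 activator and guide RNAs for *FOXL2*, a forkhead transcription factor of the ovary. All libraries came from 1 clone and 1 differentiation, so the 3 libraries of a group are technical replicates and every p covers the spread between wells, not between differentiations. The 33 libraries formed 11 groups of 3: day 4, and on each of days 6, 8, 10, 12 and 14 a control group (CTRL) and a group induced with doxycycline (DOX) and trimethoprim (TMP) from day 4 onward (IND). IND and CTRL wells shared the clone, the activator and all other media, and no group received DOX and TMP without activation of *FOXL2*, so the compounds and the activation cannot be told apart.

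The libraries held between 23940837 and 51912815 counts. *FOXL2* had between 147 and 577 CPM (counts scaled to the size of the library, with TMM factors) in the 15 induced libraries, while the other 18 held no more than 0.388 CPM. Of the markers of early gonad and coelomic epithelium, *GATA4* reached 502 CPM and *WT1* 173 CPM, while *NR5A1* stayed at or below 0.562 CPM and *LHX9* at or below 9.75 CPM. Of the pluripotency genes, *NANOG* was at most 0.317 CPM and *POU5F1* had 0 to 75.7 CPM. *SOX2* had 31.7 to 108 CPM, *DPPA4* 40.9 to 146 and *LIN28A* 64.1 to 1931. Day 10 IND replicate 2 stood apart from the other 2 wells of its group and had the lowest total of all libraries. The summed mesenchyme list reached 18068 CPM in it, against a lowest value of 4278 CPM in that group. Most of that sum was *COL1A1*, whose highest level in any library was 17621 CPM, so it does not show a rise of the other mesenchyme genes. The summed pluripotent list ran from 393 to 1961 CPM in that group. Some day 10 values of the members are therefore also given without this well. Comparisons of the marker lists and of the other pathway genes are given with it only. Day 12 IND replicate 1 and day 4 replicate 3 differed from their groups too, though less. The chi-squared per gene between 2 wells is larger where they differ more. It was 206 and 224 for pairs with day 10 IND replicate 2, and 11.5 for the other pair. Pairs with day 12 IND replicate 1 had 110 and 85.6 (other pair 16.1), and those with day 4 replicate 3 had 114 and 64.1 (other pair 15.8).

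Hedgehog ligands are secreted proteins that bind the receptor PTCH1. Without ligand, PTCH1 holds SMO inactive, and ligand binding releases SMO, which acts through the primary cilium to keep GLI2 and GLI3 from being processed into repressors. *GLI1*, *PTCH1* and *HHIP* are themselves transcribed in response to the pathway in most tissues, and PTCH1 and HHIP both bind ligand and so limit its reach. In the embryo, *SHH* is made by notochord, floor plate and gut endoderm and *IHH* by gut endoderm and cartilage, while *DHH* is the ligand of the supporting cells of the gonad.

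Promoter windows of 300 bases, 250 before and 50 after the start of transcription, were taken from RefSeq (GRCh38.p14) to show which members carry the core letters of a GLI site. The table matched 7 of the 9 members with 12 windows, and *GLI1* and *GLI3* had no entry. The letters searched were CCACCCA and, on the other strand, TGGGTGG, which 9.19% of all 35116 windows hold. They were found in 2 of the 12 windows, 1 of *PTCH1* and 1 of *GLI2*. The *PTCH1* match lies in a window whose 250 bases before the start are chr9:95509267-95509516 on the minus strand, inside the annotated gene and outside its exons. They are shown 5′ to 3′ with the match in capitals, which begins 172 bases before the start:
PTCH1: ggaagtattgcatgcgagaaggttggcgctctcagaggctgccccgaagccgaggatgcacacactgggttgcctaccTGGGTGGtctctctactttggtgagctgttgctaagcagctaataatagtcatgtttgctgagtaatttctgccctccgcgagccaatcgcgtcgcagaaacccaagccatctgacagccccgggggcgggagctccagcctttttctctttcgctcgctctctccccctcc
The *GLI2* match begins 164 bases before the start and is shown with 11 bases on either side, at chr2:120735693-120735721 on the plus strand, within the annotated gene and outside its exons:
GLI2: ttccttggtgcTGGGTGGggagagtccct
The forkhead letters TGTTTAC and GTAAACA were found in 2 other windows of *PTCH1* and in 3.42% of all windows. These matches are a description of the letters in these windows and no factor's binding was measured.

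**Figure D1:**
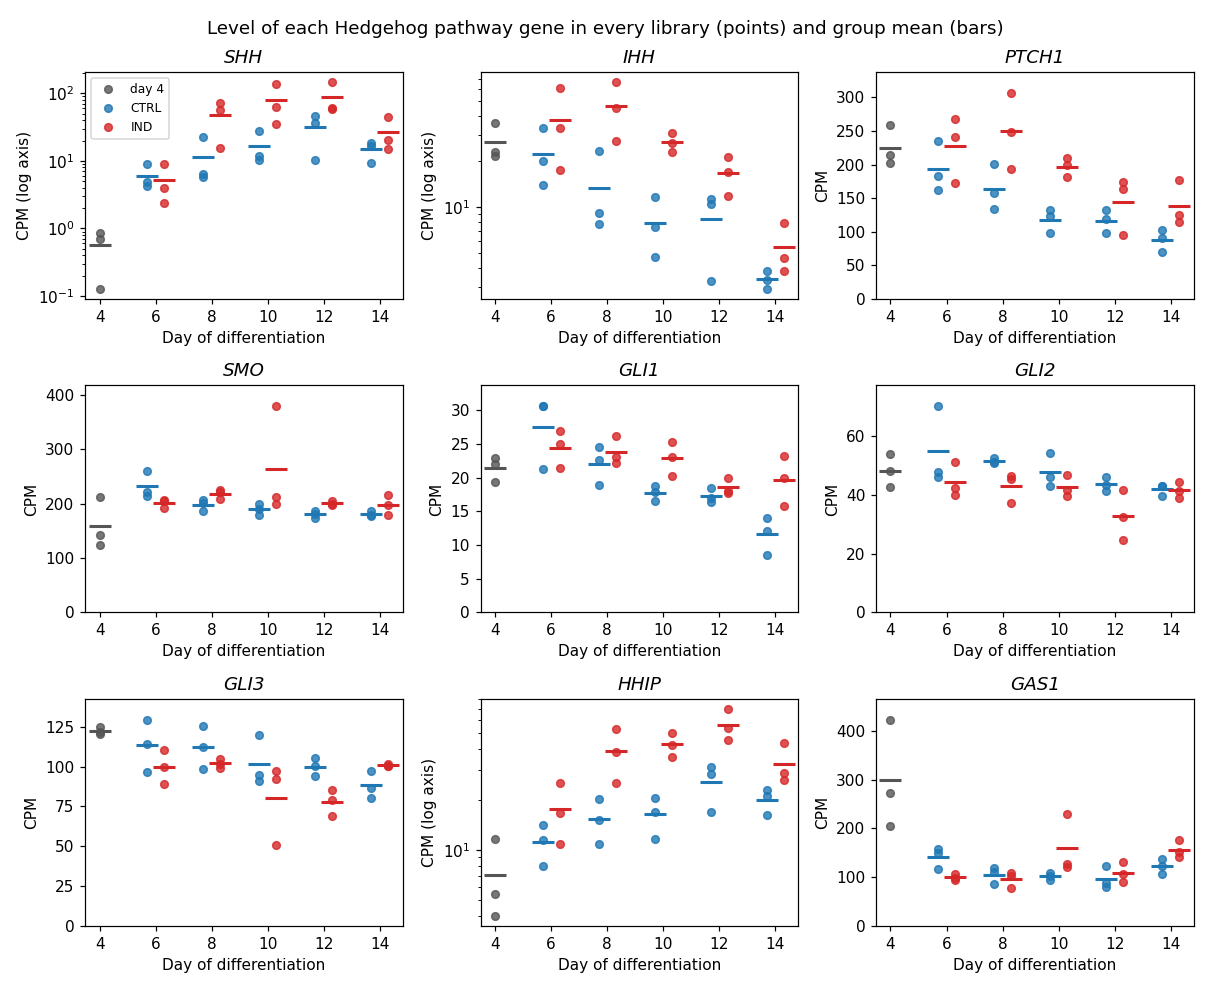
CPM of each member in every library against the day of differentiation, with day 4 in grey, CTRL in blue and IND in red. Points are libraries and horizontal bars are group means (n = 3). The panels of *SHH*, *IHH* and *HHIP* have log axes and the others start at 0. *SHH* rose from below 1 CPM on day 4, and the *HHIP* points of IND lie above those of CTRL from day 8 to day 14.

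The members were compared in 3 ways. The comparison named IND sets induced wells beside the uninduced wells of that day, DIFF sets uninduced wells beside day 4, and DIFF+IND sets induced wells beside day 4. More tests passed against day 4 than between IND and CTRL, for the members and for all genes alike. In DIFF, 23 of 45 tests of a member on a day passed an adjusted p of 0.05 in edgeR's quasi-likelihood test, while 40% of all tests of genes did. Of the 45, 9 were called higher, against 20.3% of all tests, and 14 lower, against 19.7%. In DIFF+IND, 19 of 45 passed, against 34.4% of all tests. Of the 45, 10 were called higher, against 18% of all tests, and 9 lower, against 16.4%. DIFF and DIFF+IND share the day 4 libraries. In IND, 4 of 45 passed, against 6.72% of all tests. Of the 45, 3 were called higher, against 3.04% of all tests, and 1 lower, against 3.68%. The 4 calls were *GAS1*, lower on day 6, as were 2.37% of all genes, *HHIP*, higher on day 10 (all genes 0.856%) and on day 12 (2.38%), and *GLI1*, higher on day 14 (3.21%).

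By day, IND called 1 of 9 members on day 6, where 3.66% of all genes were called, 1 on day 10 with 2.03%, 1 on day 12 with 5.42% and 1 on day 14 with 8.43%. On day 8, edgeR called 0 of 9 with 14.2% of all genes called. There, 4 members had an unadjusted p under 0.05 in edgeR and DESeq2 called 2. The matching shares of all genes are not given, so these 2 counts cannot be read as particular to the members. In 24 of the 45 IND tests the 3 IND libraries did not overlap the 3 CTRL libraries, against 28.1% of all tests of genes. IND was wholly higher in 20 of the 45, against 13.3% of all tests of genes. By day, 2, 4, 7, 5 and 6 of 9 members did not overlap, against 19.1, 33.1, 30.9, 30.3 and 26.7% of all genes. On day 10, 7 of 9 members lay wholly higher in IND, against 14.7% of all genes, and the median log2 fold change of the members was 0.66, against -0.01 over all genes. Without day 10 IND replicate 2 these medians were 0.44 and 0.01. On day 14, 6 of 9 lay wholly higher, against 12.9%, with a median of 0.67 against 0.00. From day 6 to day 14, DIFF called 2, 3, 5, 6 and 7 members, where it called 21.6, 37.1, 45.1, 48.1 and 47.6% of all genes. DIFF+IND called 3, 3, 2, 5 and 6, where it called 26.5, 35.8, 21.6, 37.1 and 50.6% of all genes.

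Without day 10 IND replicate 2, an alternative added after the data were seen, day 10 held 4 called members in place of 1. The share of all genes called in that fit is not given, so the rise cannot be read as particular to the members. *PTCH1* (log2 fold change 0.79, adjusted p = 0.00129), *GLI1* (0.44, adjusted p = 0.00558), *HHIP* (1.5, adjusted p = 0.0119) and *GAS1* (0.29, adjusted p = 0.0104) were then higher in IND, while *SHH* and *IHH* had 1.55 and 1.75 with adjusted p of 0.224 and 0.0732. Against day 4, *GAS1* (-1.28, adjusted p = 0.00995) and *GLI3* (-0.38, adjusted p = 0.0251) were then called in DIFF+IND. The number of IND calls also depended on the test. DESeq2 called 12 of 45, among them all 4 of edgeR, and limma-trend on log2(FPKM + 1) called 0, with 19 at an unadjusted p under 0.05. For these tests too the shares of all genes are not given, so the counts cannot be read as particular to the members.

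**Figure D2:**
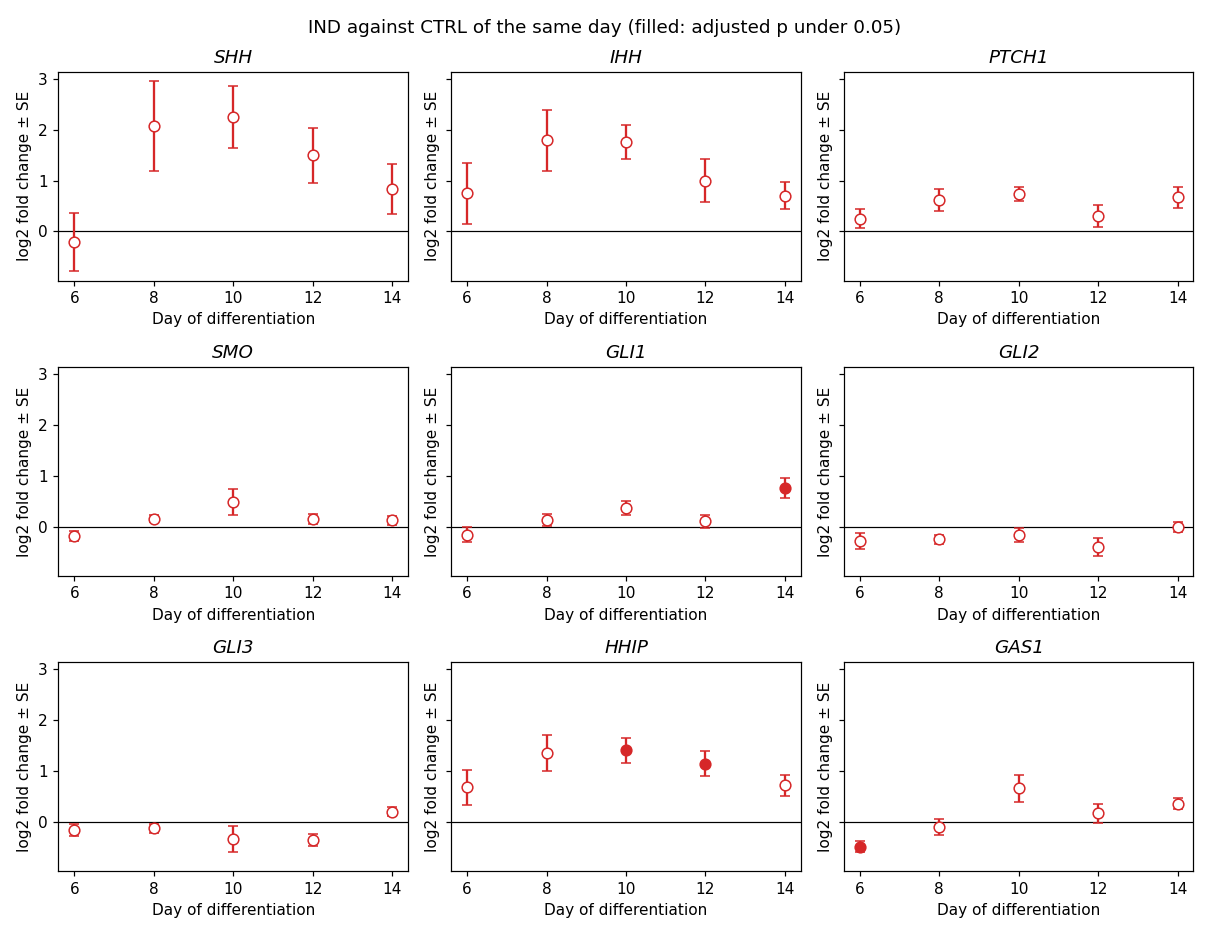
log2 fold change of IND against CTRL (± SE) for each member and day, all panels on 1 axis, with filled points where the adjusted p was under 0.05. *SHH*, *IHH* and *HHIP* have the largest values, from day 8 to day 12, and the 4 filled points are *GAS1* on day 6, *HHIP* on days 10 and 12 and *GLI1* on day 14.

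*SHH* (ENSG00000164690, chr7:155799986-155812273, minus strand of GRCh38, no exon shared with another gene) encodes Sonic hedgehog. On day 4 its 3 libraries had 0.872, 0.693 and 0.129 CPM, the last from 4 counts. In CTRL it had 4.2, 9.1 and 4.92 CPM on day 6, 5.7, 22.7 and 6.42 on day 8, 12, 10.2 and 27.3 on day 10, 10.1, 46.6 and 36.8 on day 12 and 16.7, 18.6 and 9.42 on day 14. Every later library was above every day 4 library. *SHH* rose in DIFF on all 5 days, with log2 fold changes of 3.43, 4.37, 4.90, 5.80 and 4.74, the last being 26.7-fold with an adjusted p of 6.64e-05. It also rose in DIFF+IND on all 5 days, by up to 7.29 on day 12 (SE 0.57, adjusted p = 6.57e-06).

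The IND libraries had 2.38, 4.03 and 9.09 CPM of *SHH* on day 6, 72.5, 57.3 and 15.3 on day 8, 35.2, 138 and 62.1 on day 10, 59.9, 146 and 57.8 on day 12 and 15, 44.4 and 20.1 on day 14. They lay wholly above CTRL on days 10 and 12 and overlapped it on days 6, 8 and 14. The wells of a group differed by up to several fold, and none of the IND tests passed: the log2 fold changes were -0.21, 2.07, 2.25, 1.5 and 0.83 on the 5 days, with adjusted p of 0.927, 0.213, 0.138, 0.165 and 0.425. On day 10 the SE was 0.60 on the log2 scale.

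*IHH* (ENSG00000163501, chr2:219054420-219060467, minus strand), the gene of Indian hedgehog, went the other way with time. Day 4 had 22.9, 35.6 and 21.8 CPM, and CTRL went from 20.1, 33.1 and 14 CPM on day 6 and 7.81, 23.4 and 9.17 on day 8 to 7.47, 4.72 and 11.6 on day 10, 3.25, 11.3 and 10.5 on day 12 and 3.34, 3.83 and 2.92 on day 14. It fell in DIFF by 1.74 on day 10, by 1.68 on day 12 and by 2.99 on day 14 (log2 scale, adjusted p = 0.00207, 0.0102 and 1.18e-05). Of these, the day 12 call was lost without day 4 replicate 3 (adjusted p = 0.062). In IND it had 17.5, 33.4 and 60.7 CPM on day 6, 66.2, 44.9 and 27.1 on day 8, 23.1, 26.5 and 30.7 on day 10, 21.4, 11.8 and 16.9 on day 12 and 4.66, 7.88 and 3.83 on day 14. From day 8 to day 14 every IND library was above every CTRL library of its day. For *IHH* the 5 IND comparisons gave log2 values of 0.75, 1.79, 1.76, 1.00 and 0.70, of which 0 passed, with adjusted p = 0.709, 0.134, 0.0589, 0.231 and 0.139. In DIFF+IND only the day 14 value passed (log2 fold change -2.30 ± 0.29, adjusted p = 0.000141).

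Per length, the level of *SHH* overtook that of *IHH* in both arms. The ratio of the deposited FPKM of *SHH* to that of *IHH*, a measure chosen after the values were seen and given with no test, was 0.0153, 0.00781 and 0.00238 on day 4. In CTRL it was 0.0838, 0.11 and 0.141 on day 6, 0.293, 0.39 and 0.281 on day 8, 0.645, 0.867 and 0.945 on day 10, 1.25, 1.65 and 1.4 on day 12 and 2.01, 1.95 and 1.29 on day 14. In IND it was 0.0548, 0.0485 and 0.0601, 0.44, 0.512 and 0.228, 0.614, 2.08 and 0.812, 1.13, 4.95 and 1.37, and 1.29, 2.26 and 2.11 on the same days. IND was wholly lower on day 6, and the arms overlapped on the 4 later days. The third ligand, *DHH*, had between 0 and 24 counts per library and at most 0.536 CPM, and was removed as too low before the IND tests.

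**Figure D3:**
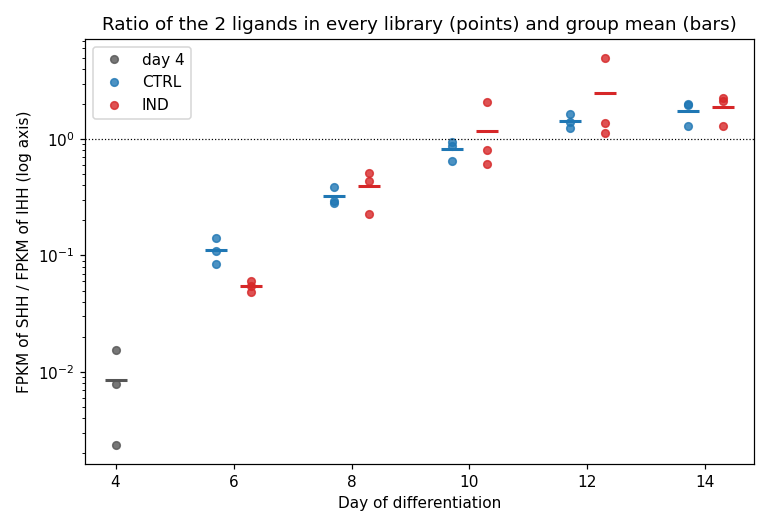
Ratio of the FPKM of *SHH* to the FPKM of *IHH* in every library against the day of differentiation, on a log axis, with day 4 in grey, CTRL in blue and IND in red. Points are libraries, bars are group means (n = 3) and the dotted line marks equal levels. The group means go from 0.0085 on day 4 to 1.75 in CTRL and 1.89 in IND on day 14.

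*PTCH1* (ENSG00000185920, chr9:95442980-95517057, minus strand), the receptor, had 215, 259.7 and 202 CPM on day 4. CTRL had 158, 201 and 133 CPM on day 8, 133, 98.2 and 123 on day 10, 98.2, 132 and 119 on day 12 and 102, 90.8 and 70.04 on day 14, and it fell in DIFF by 0.92, 0.95 and 1.36 on the log2 scale on days 10, 12 and 14 (adjusted p = 0.000736, 0.000607 and 0.000115). The IND libraries had 307, 248 and 194 CPM on day 8, 210.4, 182 and 199 on day 10, 94.8, 174 and 163 on day 12 and 125, 178 and 115 on day 14. They were wholly above CTRL on days 10 and 14. The IND log2 fold changes over the 5 days were 0.25, 0.62, 0.74, 0.31 and 0.67, with adjusted p of 0.651, 0.122, 0.0592, 0.465 and 0.098, so none passed. In DIFF+IND, *PTCH1* fell by 0.66 on day 12 and by 0.70 on day 14 (adjusted p = 0.04 and 0.00632). The day 12 call was lost when any of the 3 day 4 libraries or IND replicate 3 was left out, with an adjusted p of up to 0.116. Of its exonic bases, 4.29% are shared with an antisense gene, whose reads cannot be told apart in these non-directional libraries.

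*HHIP* (ENSG00000164161, chr4:144646021-144745271, plus strand), which encodes a membrane protein that binds and sequesters Hedgehog ligands, was the member called higher in IND on the most days. Day 4 had 5.45, 11.6 and 4.04 CPM. CTRL had 8.01, 14.1 and 11.4 CPM on day 6, 15, 20.3 and 10.9 on day 8, 16.8, 11.6 and 20.4 on day 10, 16.95, 31.2 and 28.3 on day 12 and 22.8, 21 and 16.2 on day 14. IND had 10.8, 16.7 and 25.3, 53.1, 38.6 and 25, 42.6, 36.2 and 50.3, 53.6, 69.5 and 45.3, and 28.7, 43.4 and 26.1 CPM on these days. The groups overlapped on day 6 and on no later day. *HHIP* rose in IND on day 10 (log2 fold change 1.40 ± 0.24, adjusted p = 0.0418) and on day 12 (log2 fold change 1.14 ± 0.24, adjusted p = 0.0302). On days 6, 8 and 14 its log2 values, which missed the threshold, were 0.68, 1.35 and 0.71 (adjusted p = 0.459, 0.0646 and 0.0736).

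With time, *HHIP* rose in DIFF by 1.13, 1.23, 1.85 and 1.51 on days 8, 10, 12 and 14, and in DIFF+IND by 1.33, 2.47, 2.61, 2.99 and 2.21 on the 5 days. The 2 IND calls were not steady to single wells: with each of the 6 libraries left out in turn, the day 10 call was kept in 1 of 6 and the day 12 call in 1 of 6, with adjusted p of up to 0.264 and 0.141, while the log2 fold changes stayed between 1.20 and 1.59 and between 0.92 and 1.31. The day 10 call was kept without IND replicate 2 (log2 fold change 1.5, adjusted p = 0.0119) and lost without any other library. The day 12 call was kept without IND replicate 3 (adjusted p = 0.0367) and lost without any other. The DIFF call of day 8 was lost without day 4 replicate 1 or 3 or CTRL replicate 1 or 2 (adjusted p up to 0.157), that of day 10 without day 4 replicate 1 or 3 or CTRL replicate 1 or 3 (up to 0.0959), and the DIFF+IND call of day 6 in 4 of 6 omissions (up to 0.218). Exons of *HHIP* share 2.97% of their bases with genes on the other strand, among them *HHIP-AS1*.

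*SMO* (ENSG00000128602, chr7:129188872-129213545, plus strand), the signal transducer that PTCH1 holds inactive, was not called in any of the 15 comparisons. Its libraries had 143, 123 and 212 CPM on day 4 and between 174 and 379 CPM after it. On day 10, IND had 211, 379 and 199 CPM and CTRL 199, 190.1 and 179. The second of these IND wells, the one that stood apart, held the highest *SMO* of all libraries, and without it the log2 fold change went from 0.48 to 0.11. The IND log2 fold changes over the 5 days were -0.19, 0.15, 0.48, 0.15 and 0.13, each with an adjusted p of at least 0.178. Its IND libraries were wholly below CTRL on day 6 and wholly above it on days 8, 10 and 12.

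*GAS1* (ENSG00000180447, chr9:86944363-86947189, minus strand) encodes a co-receptor that helps PTCH1 bind ligand. It had 272, 205 and 423 CPM on day 4, above every CTRL library of every later day, and fell in DIFF on all 5 days by 1.09, 1.51, 1.55, 1.62 and 1.29 on the log2 scale. On day 6 it had 150.4, 117 and 158 CPM in CTRL and 107, 97.7 and 93.9 in IND, and it fell in IND by 0.49 (SE 0.11, adjusted p = 0.0207). On the later days CTRL and IND had 110.2, 85.9 and 118 against 77.3, 103 and 109 CPM on day 8, 108, 101 and 95 against 128, 229 and 121 on day 10, 123, 80.4 and 88.2 against 89.97, 106 and 131 on day 12 and 106, 138 and 124 against 151, 142 and 175 on day 14. IND was wholly lower on day 6, wholly higher on days 10 and 14, and overlapped CTRL on days 8 and 12. Leaving out CTRL replicate 1 or 3, or IND replicate 2 or 3, lost the day 6 call (adjusted p between 0.0771 and 0.126). The day 14 value of 0.36 had an adjusted p of 0.0574.

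The GLI factors carry the signal to the genome. *GLI1* (ENSG00000111087, chr12:57460135-57472262, plus strand), an activator and a readout of the pathway, had 22, 22.9 and 19.4 CPM on day 4 and 14.1, 12.1 and 8.57 in day 14 CTRL, the lowest group, a fall in DIFF of 0.88 (SE 0.19, adjusted p = 0.00465). Day 14 IND had 20.004, 23.2 and 15.8 CPM, above all CTRL wells of that day, and *GLI1* rose in IND (log2 fold change 0.76 ± 0.19, adjusted p = 0.0293). Day 14 IND and day 4 overlapped, with a DIFF+IND value of -0.13 ± 0.16. On day 10, IND was also wholly above CTRL, with 25.3, 20.2 and 23 against 18.7, 16.5 and 17.9 CPM (log2 fold change 0.37 ± 0.14, adjusted p = 0.285). On days 6, 8 and 12 the groups overlapped and the log2 fold changes were -0.15, 0.13 and 0.10. The day 14 call was lost without CTRL replicate 2, IND replicate 1 or IND replicate 2 (adjusted p between 0.0832 and 0.105).

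*GLI2* (ENSG00000074047, chr2:120735623-120992653, plus strand), the main activator at the start of a response, was not called in any comparison. It had 48.2, 42.8 and 53.8 CPM on day 4 and its group means lay between 32.9 and 54.8 CPM. Its largest IND value was -0.40 ± 0.18 on day 12 (adjusted p = 0.264), and on day 8 its IND libraries, with 37.3, 45.6 and 46.3 CPM, were wholly below those of CTRL, with 51.3, 50.8 and 52.4 (adjusted p = 0.0934). *GLI3* (ENSG00000106571, chr7:41960950-42237870, minus strand), the main source of GLI repressor, had 122, 125 and 121 CPM on day 4 and fell in DIFF by 0.29 on day 12 and by 0.47 on day 14 (adjusted p = 0.0183 and 0.00514). It fell in DIFF+IND by 0.67 on day 12 and by 0.29 on day 14. The day 12 call in DIFF was lost without day 4 replicate 1, CTRL replicate 2 or CTRL replicate 3, and the day 14 call in DIFF+IND was kept in 1 of 6 omissions. Against CTRL, IND had 68.8, 79 and 85.5 CPM on day 12 against 105, 100.3 and 94.2, wholly lower, and 100.3, 102 and 100.4 on day 14 against 97.6, 86.7 and 80.6, wholly higher, and neither passed (adjusted p = 0.134 and 0.212).

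**Figure D4:**
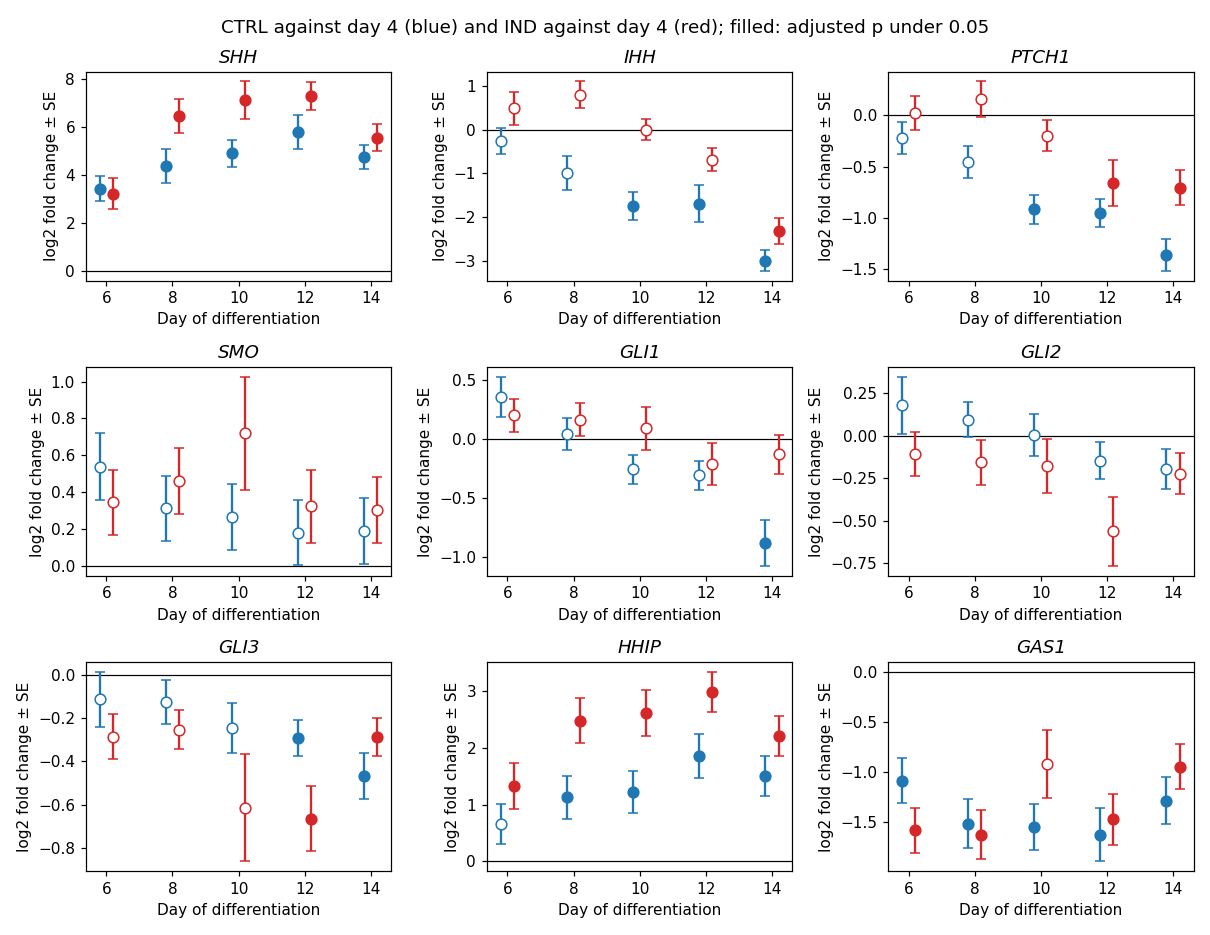
log2 fold change against day 4 (± SE) of CTRL (DIFF, blue) and IND (DIFF+IND, red) for each member and day, each panel with its own axis. Filled points had an adjusted p under 0.05, and both colours share the same 3 day 4 libraries. *SHH* is filled in all 10 comparisons, *GAS1* in 9 and *HHIP* in 9, and *SMO* and *GLI2* in 0.

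Whether the effect of induction differed between days was tested over the 30 libraries after day 4 with an interaction of day and induction. EdgeR called 0 of 9 members, where it called 2.38% of 22442 genes. At an unadjusted p under 0.05 there were 2, *GLI1* and *GAS1*, with adjusted p of 0.133 and 0.102, and DESeq2 called 2 members. The shares of all genes for these 2 counts are not given. The order of the 11 group means of each member had 10 pairs of neighbours, and in 9 or 10 of the 10 the libraries of the neighbouring groups overlapped. The highest group mean was 155-fold above the lowest for *SHH*, 13.7-fold for *IHH*, 7.97-fold for *HHIP*, 3.11-fold for *GAS1*, 2.85-fold for *PTCH1* and between 1.57-fold and 2.38-fold for *SMO* and the 3 GLI genes, all in CPM. Per length, the group means of the deposited FPKM lay between 36.6 and 61.1 for *SMO* and between 34 and 105 for *GAS1*, above those of *PTCH1* (5.32 to 15), *GLI3* (7.04 to 11.1), *GLI2* (4.45 to 7.33) and *GLI1* (2.77 to 6.42). They lay between 0.111 and 17.3 for *SHH*, between 1.68 and 22.8 for *IHH* and between 0.579 and 4.61 for *HHIP*.

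Markers of endoderm and gut epithelium, tissues that make Hedgehog ligands in the embryo, were read beside the ligands. In CTRL the summed mean of these markers was below day 4 on every later day, while that of *SHH* was above it. Not every gene of the list fell. The 6 genes of this list (*SOX17*, *FOXA1*, *FOXA2*, *EPCAM*, *CDH1* and *CDX2*) were detected in every library. Whether they mark these tissues alone in these cells was not tested. Their summed level was 239 to 455 CPM on day 4. In CTRL it was 177 to 335 CPM on day 6, 118 to 308 on day 8, 89.98 to 248 on day 10, 96.9 to 239 on day 12 and 124 to 136 on day 14. In IND it was 175 to 552 CPM on day 6, 338 to 829 on day 8, 349 to 719 on day 10, 392 to 645 on day 12 and 122 to 242 on day 14. IND was wholly higher on days 8, 10 and 12. In IND, edgeR called 4 of 6 higher on day 12 (*FOXA2*, *EPCAM*, *CDH1* and *CDX2*) and 0 of 6 on the other days. Over all genes, 2.38% were called higher in IND on day 12. In DIFF, where *SHH* rose on all 5 days, *CDX2*, *EPCAM* and *FOXA2* were called lower on all 5, *FOXA1* was lower on day 14 and *SOX17* higher on day 6. *CDH1* was not called in DIFF, and its CTRL mean was 32.6 CPM on day 6 and 55.3 on day 12. In DIFF+IND, where *SHH* also rose, *SOX17* was higher on days 6 to 12, *FOXA1* on days 8 to 12 and *CDH1* on days 8, 12 and 14. There, *CDX2* was lower on days 12 and 14, and *EPCAM* and *FOXA2* on day 14. The median log2 fold change of the list in DIFF was -1.58 on day 14. In bulk samples, more cells of a type and more RNA per cell cannot be told apart.

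Between wells of the same group, the ligands and *HHIP* followed this list. Over the deviations of the 33 libraries from their group means on the log2 scale, given as a description since the wells share their group, the Pearson correlation with the summed list was 0.903 for *SHH*, 0.859 for *IHH*, 0.825 for *HHIP* and 0.674 for *PTCH1*. It was 0.342 for *GLI1*, 0.0536 for *SMO*, -0.438 for *GLI2*, -0.465 for *GLI3* and -0.466 for *GAS1*. Without the 2 wells farthest from the median, the first 3 were 0.893, 0.833 and 0.819. The well with the most *SHH* was also the well with the most of the list in 9 of 11 groups. This was not particular to the endoderm list: for *SHH* the pluripotent list also shared the highest well in 9 of 11 groups, with a correlation of 0.58, and the floor plate and notochord list in 8, with 0.75. *FOXA2* stands in both the endoderm list and the floor plate and notochord list, so these lists are not independent. The floor plate and notochord list had 0.468 with *IHH*, 0.607 with *PTCH1* and 0.596 with *HHIP*. *PTCH1* and *GLI1* deviated together, with 0.725, and had the same highest well in 10 of 11 groups, while *HHIP* and *GAS1* deviated in opposite directions (-0.729) and had the same highest well in 0 of 11.

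The ligands were also divided by the summed list within each library. *SHH* over the list was 0.108, 0.113 and 0.11 in CTRL and 0.101, 0.191 and 0.109 in IND on day 10, and CTRL and IND overlapped on days 8, 10, 12 and 14. Undivided, *SHH* overlapped on days 8 and 14 already, so the division changed this on days 10 and 12. On day 6 IND was wholly lower, with 0.0136, 0.012 and 0.0164 against 0.0238, 0.0272 and 0.0276. *IHH* over the list overlapped on all 5 days, where undivided it overlapped on day 6 alone, and *HHIP* over the list overlapped on 4 and was wholly lower in IND on day 12. *SHH* over *FOXA2* alone was wholly lower in IND on days 6 and 10 and overlapped on days 8, 12 and 14. These ratios were chosen after the values were seen. The part of these markers in the differences of *SHH*, *IHH*, *HHIP* and *PTCH1* was not tested.

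**Figure D5:**
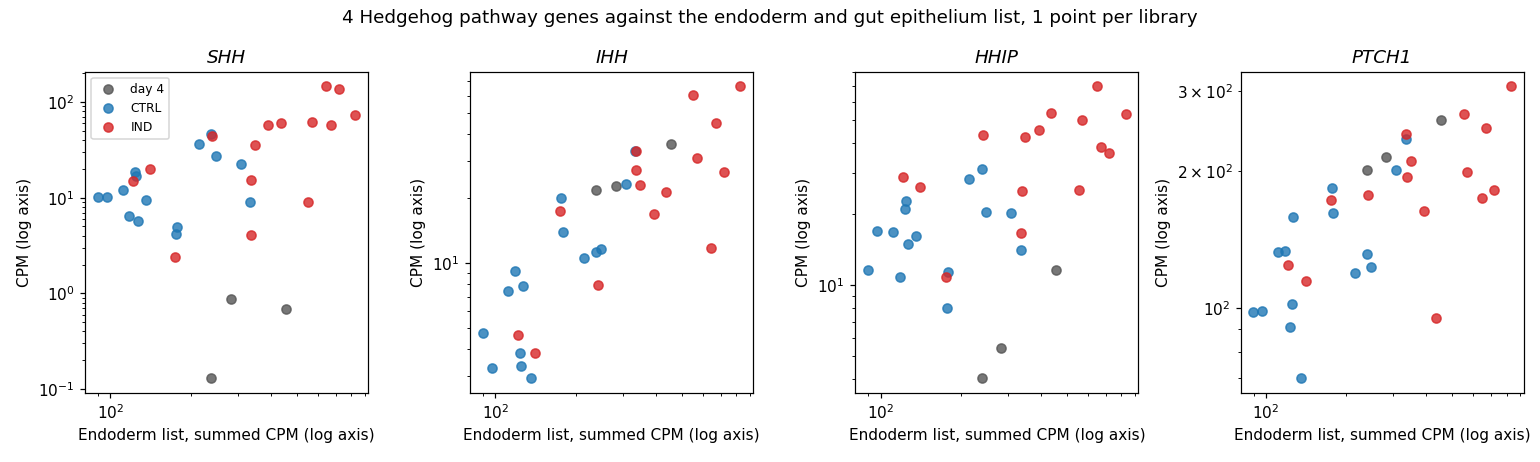
CPM of *SHH*, *IHH*, *HHIP* and *PTCH1* against the summed CPM of the 6 endoderm and gut epithelium markers, both on log axes, 1 point per library, with day 4 in grey, CTRL in blue and IND in red. The library with the most of the markers was also the one with the most *SHH* in 9 of 11 groups, and the 3 day 4 libraries lie apart for *SHH*, at or below 0.872 CPM.

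Other tissues that make or answer to Hedgehog were checked too. Of the 6 floor plate and notochord genes, *TBXT* was at 3 counts or fewer in every library of 5 groups, *NOTO* of 6 and *NKX2-2* of 3, and the 2 most abundant, *FOXA2* and *SPON1*, are not limited to these tissues. Their summed level was 55.7 to 77.2 CPM in day 10 CTRL and 80.5 to 147 in day 10 IND, the only day on which the arms did not overlap. It was 68.4 to 84.2 in CTRL and 76.4 to 158 in IND on day 8, and 75.1 to 76.7 and 75.3 to 131 on day 12, and the mean of IND was below that of CTRL on days 6 and 14. Of the 8 coelomic epithelium and early gonad markers, 2, 4, 3, 3 and 4 were called lower in IND from day 6 to day 14, *GATA4* and *WT1* on each day, and *MSLN* was called higher on day 6. Of the neuron markers, 1 of 8 genes was called lower in IND on day 6, 7 on day 8, 5 on day 10, 7 on day 12 and 6 on day 14. Endothelial markers were called higher in IND for 4 of 5 genes on day 8, 1 on day 10 and 3 on day 12, with *KDR* called lower on day 6 and 0 of 5 called on day 14. Of the mesenchyme list, 4, 3, 1, 3 and 0 of 6 genes were called lower in IND from day 6 to day 14. Over all genes, IND called 3.66, 14.2, 2.03, 5.42 and 8.43% in either direction from day 6 to day 14. Counts of different days are therefore not on the same footing. The part of these cell types in the member values was not tested.

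Another 78 genes of the pathway, in 6 lists by role, were read beside the members, and 77 were found. In IND, 2 were higher and 9 lower of the 75 tested on day 6, where 3.66% of all genes were called and 14.7% of these. On days 8, 10, 12 and 14, 7, 2, 5 and 2 of 75 were higher and 11, 4, 6 and 4 lower. These were 24, 8, 14.7 and 8% of the list, against 14.2, 2.03, 5.42 and 8.43% of all genes, so that on day 14 the list was called no more often than all genes. The calls lay mostly at the cell surface and among candidate targets. Of 21 intracellular genes, such as *SUFU*, *KIF7* and protein kinase A, 2 were called in IND on day 8 and 0 on the other days. Of 16 cilium genes, 1 was called on day 8 and 0 on the others. On day 8, 14.2% of all genes were called.

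Of genes that release or carry the ligand, *GPC4*, a heparan sulphate proteoglycan of the cell surface, was higher in IND on all 5 days. It had 37.5 ± 1.77 CPM in CTRL and 158 ± 21.3 in IND on day 8, and its log2 fold changes were 1.22, 2.09, 1.82, 1.40 and 1.16. *DISP1*, which releases lipid-modified ligand from the cell that makes it, was called lower on days 6, 8 and 12 (-0.67, -1.33 and -1.04). Its values of -1.47 on day 10 (SE 0.42, adjusted p = 0.163) and -0.54 on day 14 (adjusted p = 0.112) missed the threshold. On day 8 it had 38 ± 6.74 CPM in CTRL and 14.9 ± 3.53 in IND.

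Of the 8 genes of ligand reception, 3, 3, 2, 2 and 1 were called lower in IND on days 6, 8, 10, 12 and 14 and 0 higher. Over all genes, 2.37% were called lower on day 6. In either direction, 3.66, 14.2, 2.03, 5.42 and 8.43% of all genes were called on these days. *BOC*, a co-receptor, was called lower on days 6, 8 and 12 (-0.82, -0.82 and -0.55). Its values on days 10 and 14 were -0.66 and 0.10 (adjusted p = 0.0998 and 0.545). *LRP2*, an endocytic receptor that binds SHH, was called lower on days 6, 8, 10 and 12 (-0.72, -1.29, -1.76 and -1.58). On day 10 it had 152 ± 3.52 CPM in CTRL and 44.8 ± 6.53 in IND. Its day 14 value was -0.82 (adjusted p = 0.0643). *GPC3*, a glypican that competes with PTCH1 for ligand, was called lower on days 8, 10 and 14 (-1.02, -0.78 and -0.40). On days 6 and 12 it had -0.86 and -0.38 (adjusted p = 0.114 and 0.132). *CDON*, a paralog of *BOC*, was called lower on day 6 alone. It is named outside the rule, after its values were seen.

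Of candidate targets in mesenchyme and mesoderm, *MYCN*, a proliferation factor, was lower in IND on all 5 days (-0.34, -0.57, -0.70, -0.64 and -0.58), with 189 ± 5.04 CPM in CTRL and 116 ± 6.32 in IND on day 10. *GREM1*, a BMP antagonist, was lower on days 10, 12 and 14 (-1.55, -1.34 and -0.99). *NR2F1*, a nuclear receptor, was higher on days 8, 10 and 12 (0.55, 0.79 and 0.72) and had -0.08 on day 14.

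The genes whose 11 group means of log2 CPM were most like those of each member, by Pearson correlation over 15701 genes, are given as a description over groups that share day and arm. For *SHH* they were *EVA1A* (0.981), *SUSD1* (0.98) and *KLC4* (0.977). For *IHH*, *PTPN5* (0.986) and *SOAT2* (0.982) were among the 3. For *HHIP* they were *CPM* (0.992), here the gene of carboxypeptidase M and not the unit, *ECHDC2* (0.988) and *KAZALD1* (0.983). For *PTCH1* they were *BMPER* (0.963), *SORL1* (0.963) and *KITLG* (0.963). For *GLI1* they were *FSHR* (0.939), *SEC24B-AS1* (0.939) and *AOC3* (0.933), where *FSHR* encodes the receptor of follicle-stimulating hormone. *SEC24B-AS1* is an antisense gene, and reads from any bases it shares with a gene on the other strand cannot be told apart. Its overlap was not measured. For *SMO*, *GLI2*, *GLI3* and *GAS1* the 3 most like genes had correlations between 0.906 and 0.968. Without day 10 IND replicate 2, *KLC4* was no longer among the 3 for *SHH*, *PTPN5* for *IHH*, *KAZALD1* for *HHIP*, *BMPER* and *SORL1* for *PTCH1* and *SEC24B-AS1* for *GLI1*, and all 3 genes of *GLI2* and of *GAS1* were replaced.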

How the data were processed

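RNA was taken from 33 wells of the H9-FOXL2-DDdCas9VP192 line and sequenced as non-directional poly-A libraries. Per the study's methods and processing notes, the authors trimmed reads with fastp 0.23.2, aligned them to GRCh38 with HISAT2 2.0.5 and counted them per gene with featureCounts 1.5.0-p3. The deposited counts are raw whole numbers per gene and were used for all main tests. The deposited FPKM, which the authors scaled for gene length and depth, were used for levels between genes and for 1 alternative.

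Groups came from the sample labels. Each comparison was fitted on its 6 libraries with edgeR 4.0.16 in R 4.3.3 (filterByExpr, TMM factors, robust quasi-likelihood test), with Benjamini-Hochberg adjustment over all genes tested and a threshold of 0.05. Whether induction acted differently between days was tested as an interaction over 30 libraries. The main scale is CPM with TMM factors. Depth ran from 23940837 to 51912815 counts, so that 3 counts, taken as the floor, were 0.0564 to 0.129 CPM, which covers counting error only. Deviations from group means used log2(CPM + 0.1). Alternatives were DESeq2 1.42.0, RLE factors, other filters, 1 fit over all libraries, limma-trend (limma 3.58.1) on log2(FPKM + 1), a replicate block and leaving out each library. The scripts were tested on simulated data.

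The members, the pathway lists and the cell type markers were chosen with earlier results of these data known. All 9 members are named. Of the other pathway genes, those that passed in at least 3 of the 5 IND comparisons are named, with *DHH* and, for each member, the 3 genes of most like group means among genes with a mean of at least 1 CPM. Exceptions are stated, and some genes of the lists were left out and are not reported here. Promoter sequences came from RefSeq, and protein sequences were not used here.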

Additional observations from a re-analysis of the deposited data

How the results depend on the processing

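The number of IND tests called, 4 of 45, depended on the processing. It was 12 with DESeq2, 11 without a filter on low counts, 10 with 1 fit over all 33 libraries and 0 with limma-trend on log2(FPKM + 1), where the lowest adjusted p was 0.0638 and 19 had an unadjusted p under 0.05. It was 4 with RLE factors, 6 with a mean of at least 50 counts, 1 to 5 with single libraries left out (1 without CTRL replicate 1 of each day and 1 without CTRL replicate 3) and 7 without day 10 IND replicate 2. All 4 calls were among those of DESeq2 and of the fit without a filter, and 3 of 4 among those of the fit over all libraries. The shares of all genes called in the alternatives are not given, for IND, DIFF, DIFF+IND or the interaction. Their counts therefore cannot be read as particular to the members. The DIFF count of 23 ranged from 20 to 28 and the DIFF+IND count of 19 from 16 to 25 over all alternatives. The interaction called 0 members, 4 without a filter, 2 with DESeq2, and 0 to 1 with single libraries left out (1 without day 10 IND replicate 1 and 1 without day 10 IND replicate 3). The causes of these differences were not tested.

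Same-numbered wells did not deviate together: their deviations from the group means correlated at -0.107 to 0.0781 over the 15 pairs compared. With a replicate block the IND count was 10, which included 3 of the 4 calls, DIFF 27, DIFF+IND 22 and the interaction 0.

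Over the single values, 585 in each kind of comparison, no value that passed the threshold in either fit changed direction. In IND, 518 stayed on their side of the threshold, 23 lost the call and 44 gained it, in DIFF 544, 19 and 22, and in DIFF+IND 533, 20 and 32. Depth limits *SHH* on day 4, where its 3 libraries held 4 to 24 counts, and *DHH*.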
